A study of Danio rerio with 12 samples.

Results

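The genes considered here lie on the long arm of zebrafish chromosome 4. They were chosen by position alone. Every row of the deposited gene table was taken whose locus lay on chromosome 4 of the GRCz10 genome build and started at or above 27 Mb. That rule took 2406 of the 32105 rows (7.49%). The 698 rows of chromosome 4 that start below 27 Mb and the 29001 rows on other chromosomes and scaffolds served for comparison. Chromosome 4 had 3104 rows in all, against 1704 on the next largest chromosome by this count.

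The long arm of chromosome 4 is an unusual stretch of the zebrafish genome. It is heterochromatic and late replicating, poor in ordinary protein-coding genes, and dense in repeated genes, among them zinc finger genes, spliceosomal small nuclear RNA genes, 5S ribosomal RNA genes and the miR-430 cluster. In wild strains its distal end carries a region linked to sex, whereas the laboratory strain AB has no such linkage. Many of its zinc finger genes are known for transcription in the early embryo, and miR-430 is known for the clearance of maternal messages.

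RNA was measured in regenerating ventricles at 7 days post-amputation (dpa), which is the interval after surgical removal of the ventricular apex. The tested fish were grl5nt-/- mutants, homozygous for a CRISPR/Cas9 deletion of 5 nucleotides in the first exon of grl (hey2, a Hairy-related repressor of the Notch pathway). They were set against WT siblings, and both groups were of the AB strain, 5 months old, and without drug treatment. Each genotype had 3 libraries and each library pooled 6 ventricles. The deletion was present in every cell from fertilisation on, so that a difference in the adult heart could have arisen at any stage. The labels do not give the sex of the fish. The p-values measure the spread between these pools.

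The 6 libraries held between 12520034 and 15006574 gene counts. hey2 itself had 228, 218 and 189 counts in mutant libraries, against 256, 177 and 127 in WT libraries. In CPM (counts scaled to a fixed library size, here with TMM factors) it had 15.6, 18.8 and 18.5 in mutants. In WT libraries it had 13.3, 10.6 and 9.95 CPM. Each mutant library thus stood above each WT library (log2 fold change 0.64, unadjusted p = 0.0191, adjusted p = 0.405, edgeR). A gene total cannot show a deletion of this size. Mitochondrial mt-co1 had no read in mutant replicate 1 and in WT replicates 1 and 2, against 583890 to 739939 reads in mutant replicates 2 and 3 and WT replicate 3. The 3 libraries without mt-co1 reads thus hold 1 mutant and 2 WT libraries. Because this split runs unevenly across the genotypes, the long-arm results below are also given within each side of it. The cardiomyocyte list of 7 genes summed to 29083 to 46548 CPM in mutant libraries and to 27641 to 41641 CPM in WT libraries. All 7 had reads.

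Most rows of the long arm had no reads. No read fell on 1410 of its 2406 rows (58.6%) in any of the 6 libraries. This held for 89 of 698 rows (12.8%) on chromosome 4 below 27 Mb and for 5744 of 29001 rows (19.8%) elsewhere. A mean of at least 1 FPKM (fragments scaled by transcript length and library size) was reached by 71 long-arm rows (2.95%), against 321 (46.0%) below 27 Mb and 11967 (41.3%) elsewhere. After the filter on low counts, 248 long-arm members (10.3%) could be tested for a genotype difference, against 411 (58.9%) below 27 Mb and 14943 (51.5%) elsewhere.

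The members that passed were also lower than other tested genes. Their median level was 0.595 FPKM and their median count 24 per library, against 3.58 FPKM and 145 counts below 27 Mb and 3.41 FPKM and 138 counts elsewhere. In all, 179 of the 248 tested members (72.2%) had a mean below 1 FPKM, against 20.8% of the other tested genes. Rows of any kind also stood closer together, at 48.5 per Mb on the long arm and 25.9 per Mb below 27 Mb. Small RNA rows make up much of this contrast. Without them 1333 of 2406 rows remained on the arm and 673 of 698 below 27 Mb. The span of 122 of the 248 tested members (49.2%) overlapped another row, against 31.9% below 27 Mb and 25.3% elsewhere. The strand setting of the counting was not given in the sources used here, so reads of overlapping rows and of near-identical copies could not be assigned with certainty. Of the 2406 members, 1227 shared their symbol with another row.

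Small RNA genes made up 1073 of the 2406 members (44.6%). U6, the catalytic small nuclear RNA of the spliceosome, had 666 rows on the long arm out of 706 in the table (94.3%). U1, which pairs with the 5′ splice site, had 319 rows there out of 382 (83.5%). Hardly any of these rows held reads. A read was found on 13 of the 666 U6 rows, none with more than 3 reads in a library, and on 3 of the 319 U1 rows. The whole set of 1073 small RNA rows received 57 reads over the 6 libraries. The libraries were made with a kit for long RNA, so these values do not measure small RNA.

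The miR-430 cluster lay near the lower boundary. Its 54 rows, out of 55 miR-430 rows in the table, stood between 28738728 and 28754891 on chromosome 4, and no library had a read on any of them. The 29 ribosomal RNA rows of the arm also had no read. Without small RNA genes the long arm kept 1333 rows, of which 355 had no read and 18.6% could be tested. The lower tested share thus remained when small RNA rows were set aside.

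**Figure D1:**
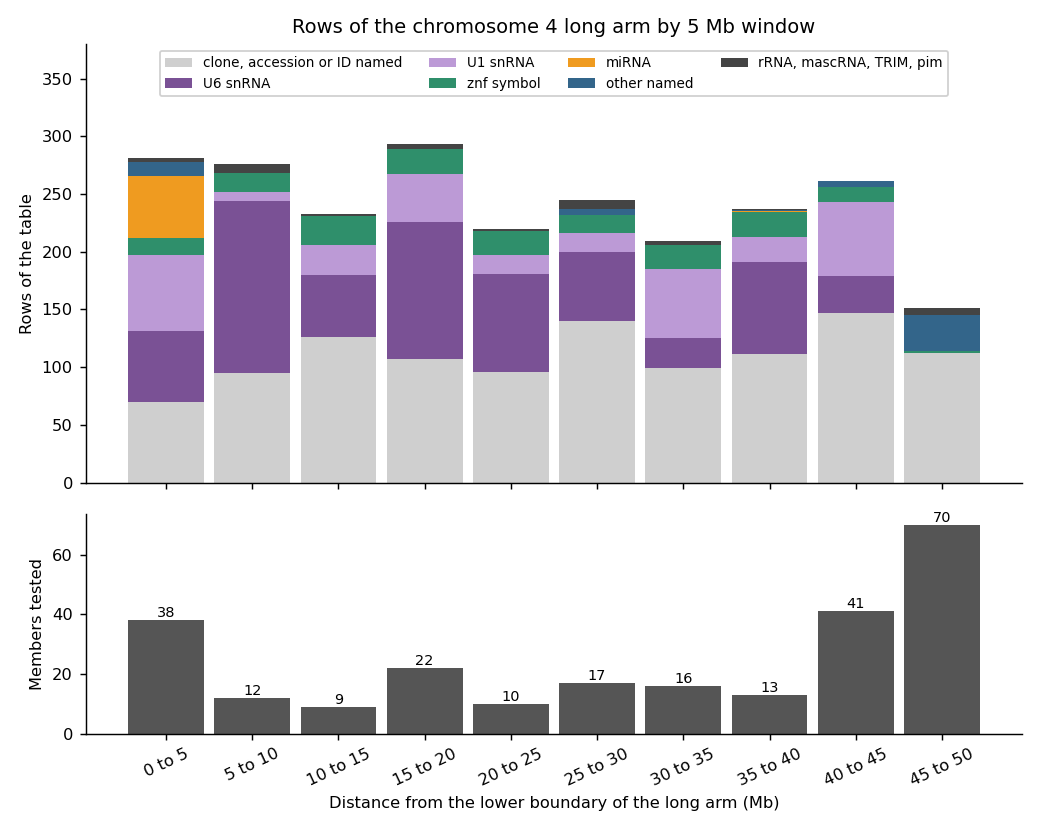
Number of table rows (top, stacked by kind of gene) and of tested members (bottom) in 10 windows of 5 Mb, ordered by distance from the 27 Mb boundary. U6 and U1 rows fill the first 9 windows and are absent from the last one, which has 151 rows and the most tested members, 70.

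Zinc finger genes were read from symbols that begin with znf or from descriptions that name a zinc finger, BED-type apart. They had 172 rows on the long arm, out of 554 in the table (31.0%). Many such genes encode DNA-binding proteins, but the rule does not separate the classes of zinc finger. A read was found on 157 of the 172, but levels were low. Their median was 0.0762 FPKM and the highest, znf1112, averaged 0.966 FPKM. Of the 172, 25 (14.5%) could be tested. Elsewhere 325 of 382 genes under the same rule (85.1%) could be tested, and the median of the 382 was 1.53 FPKM. The 2 sets may differ in the kinds of zinc finger gene they hold. Genes named only by a clone, an accession or an identifier formed the largest kind, with 1103 rows and 189 tested. Families within that kind are not given by the files, so zinc finger genes without such a symbol or description are counted there. Another 54 rows had other gene names, and 32 of these were tested. There were 2 TRIM rows, trim24 and ftr51, 2 pim kinase rows without reads, and 4 mascRNA rows. No row of the arm carried a symbol of the NLR, GIMAP or histone families, and whether clone-named rows belong to them is not known here.

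Expression was concentrated at the distal end. The window from 72 to 77 Mb held 151 rows and 70 of the 248 tested members, and took 47.7% of all long-arm counts. It carried 31 of the 54 members with other gene names and no U6 or U1 row. The window from 42 to 47 Mb came second by summed FPKM, with 24.3% of the arm, because of a single gene. That gene was si:ch211-209p16.4, which alone made up 21.2% of the summed long-arm FPKM.

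The 6 tested members with the highest level were expressed in all libraries, and none differed between the genotypes beyond the spread of replicates. The clone-named gene si:ch211-209p16.4 (44090996-44094214) had 184, 115 and 139 FPKM in mutant libraries, against 205, 113 and 137 FPKM in WT libraries. ENSDARG00000087206 had 58.3, 66.9 and 79.1 FPKM in mutants and 56.5, 67.8 and 84.7 FPKM in WT. Its annotated model is short and its span overlaps that of pacsin2, which encodes a membrane-bending F-BAR protein, so the reads may belong to either.

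PSMB10, which encodes a catalytic subunit of the immunoproteasome, had 37.2, 41.0 and 45.8 FPKM in mutants and 41.4, 37.1 and 31.2 FPKM in WT. RAB21, a small GTPase of early endosomes, had 25.3, 29.3 and 29.1 FPKM in mutants and 25.8, 26.5 and 28.2 FPKM in WT. The endothelial receptor phosphatase gene ptprb had 25.98, 21.25 and 21.19 FPKM in mutants and 23.2, 28.7 and 17.9 FPKM in WT. Across the 3 genes the genotypes overlapped, with log2 fold changes of 0.51 for PSMB10, 0.35 for RAB21 and 0.28 for ptprb (adjusted p = 0.497, 0.612 and 0.596, edgeR). In the sixth, si:ch211-165i18.2, the libraries differed more than the genotypes, with 24.8, 11.4 and 9.33 FPKM in mutants and 51.8, 29.7 and 12.4 FPKM in WT (log2 fold change -0.72, adjusted p = 0.534, edgeR).

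At the boundary, the last gene outside was slc6a1l, which resembles GABA transporter genes and had no read in any library. The first gene inside was creld2, which encodes a chaperone of the endoplasmic reticulum. It had 62, 47 and 41 counts in mutants and 90, 59 and 30 counts in WT (log2 fold change 0.22, adjusted p = 0.775, edgeR).

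The long arm as a whole took a small share of the reads. It received 0.158%, 0.109% and 0.126% of all gene counts in mutant libraries, against 0.205%, 0.173% and 0.113% in WT libraries. The widest 95% Wilson interval reached 0.00229 percentage points to either side, which covers counting error only. The genotypes overlapped, with means of 0.131% ± 0.0249 in mutants and 0.164% ± 0.0464 in WT (SD, n = 3 each), a ratio of 0.801. The lowest 3 shares were those of the libraries with mt-co1 reads.

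Scaled with TMM factors, the sums came closer. They were 1424, 1387 and 1539 CPM in mutants and 1588, 1428 and 1332 CPM in WT, with means of 1450 ± 78.8 CPM and 1449 ± 129 CPM (SD, n = 3 each) and a ratio of 1.0005. With the summed deposited FPKM the ratio was 0.859. No difference in the total long-arm RNA beyond replicate spread was seen on any of these 3 scales. In bulk tissue, fewer cells of a type and less RNA per cell cannot be told apart.

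A read was found on 751, 597 and 620 members in mutant libraries, against 863, 813 and 633 members in WT libraries. The 3 libraries with mt-co1 reads were again the lowest, at 597 to 633 members, against 751 to 863 in the libraries without them.

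**Figure D2:**
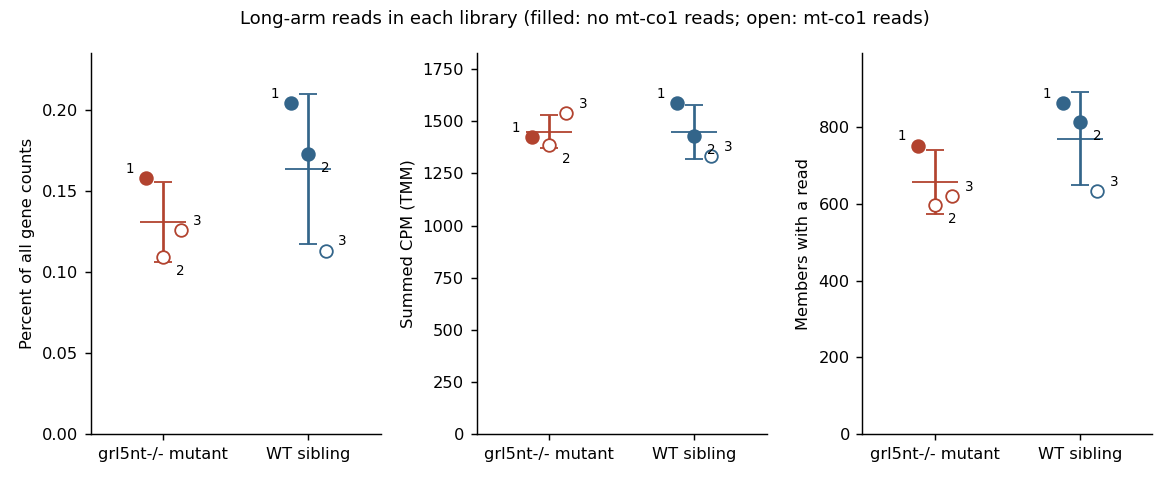
Percent of all gene counts, summed CPM and number of members with a read for the long arm in each library, mutants left of WT siblings, with replicate numbers, means (bars) and SD. Filled points are libraries without mt-co1 reads and open points libraries with them. The open points lie lowest for the share of counts (0.109% to 0.126%) and for members with a read (597 to 633), while summed CPM overlaps throughout.

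The genotype comparison asked which long-arm genes differed with the loss of grl in the injured heart. Of the 248 tested members, 2 passed at an adjusted p below 0.05 (0.806%), both lower in mutants. Over all 15602 genes tested, 0.0769% passed in either direction, 0.0192% higher and 0.0577% lower. On chromosome 4 below 27 Mb 0 genes passed in edgeR, with 46 at an unadjusted p below 0.05 and 3 passing in DESeq2, and 10 genes passed elsewhere. At an unadjusted p below 0.05 stood 29 members, 10 higher and 19 lower, which is 11.7% of those tested, against 10.6% over all genes, 4.22% higher and 6.35% lower. The genotypes did not overlap in CPM for 12 members higher (4.84%) and 27 lower (10.9%) in mutants, against 6.95% and 8.64% over all genes.

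Both genes that passed lay in the same window, from 37 to 42 Mb. The row ENSDARG00000104850, 1 of 19 rows that share the symbol si:dkey-16p6.1, spans 39529822-39546912. It had 8, 4 and 8 counts in mutant libraries, against 171, 94 and 94 counts in WT libraries. These are 0.547, 0.346 and 0.781 CPM in mutants and 8.85, 5.61 and 7.37 CPM in WT. The highest mutant stood far under the lowest WT library, with a difference of -3.70 ± 0.41 (SE) in log2 fold change (adjusted p = 0.0342 in edgeR). Of the 19 rows, looked at after their values were seen, 10 were tested, 1 higher and 9 lower in mutants. The median log2 difference of the 10 was -0.66 for genotype and 1.14 for libraries without over with mt-co1 reads. ENSDARG00000104850 was the only 1 of the 10 with an unadjusted p below 0.05 in edgeR.

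The second gene, si:ch211-218h8.1, spans 39831166-39849522. It had 1, 0 and 1 counts in mutant libraries, against 64, 38 and 37 counts in WT libraries. With 2 mutant counts in all, the ratio of mutant to WT expression was 0.0193, with a 95% counting interval of 0.00231 to 0.0710 (adjusted p = 0.0399, edgeR). Thus the gene was near absent from each mutant library and present in each WT library. Its span lies inside that of BX470200.3, which had no more than 3 counts in any library.

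For both genes each mutant library stood under each WT library, so the direction within each side of the mt-co1 split was fixed in advance. The sizes are given as differences of mean log2 CPM with 2 counts added, which shrinks them beside the edgeR fold changes. The difference of si:dkey-16p6.1 (ENSDARG00000104850) was -3.39 on the side without mt-co1 reads and -3.40 on the side with them. That of si:ch211-218h8.1 was -3.80 and -3.76. The calls did depend on single libraries, as did the number of calls over all genes. For ENSDARG00000104850 the adjusted p was 0.184 and 0.174 with mutant replicates 2 and 3 left out, and 0.109 and 0.114 with WT replicates 1 and 2 left out. For si:ch211-218h8.1 it was 0.0534, 0.207 and 0.235 without mutant replicates 1, 2 and 3, and 0.136 and 0.194 without WT replicates 1 and 2. The log2 fold changes then lay between -3.98 and -3.45 for the first and between -5.94 and -4.98 for the second.

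This window was picked after its values were seen. It held 233 rows, of which 9 could be tested. Of the 9, 8 were lower and 1 was higher in mutants, with a median log2 fold change of -1.04. The genotypes did not overlap for 5 members lower (55.6% of the 9) and 1 higher (11.1%). Over all genes tested these shares were 8.64% and 6.95%, but the window was picked for its values. Over the other settings run, the median lay between -2.03 (without mutant replicate 1) and -0.62 (limma on log2(FPKM + 1)). In log2 CPM with 2 counts added, the window's median difference was -0.90 within the libraries without mt-co1 reads. Within those with them it was -1.31. Because 5 of the 9 members had each mutant library under each WT library, a negative median on both sides was fixed in advance.

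Among these, si:dkey-3p4.1 (37333871-37354258) had 1.37, 0.519 and 1.56 CPM in mutants and 9.21, 5.43 and 6.11 CPM in WT (log2 fold change -2.58, adjusted p = 0.143, edgeR). Its neighbour si:dkey-207l24.2 had 16, 0 and 9 counts in mutants and 66, 39 and 50 counts in WT (log2 fold change -2.25, adjusted p = 0.405, edgeR). For both, each mutant library stood under each WT library.

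A smaller difference was seen in si:dkey-207m2.4 (ENSDARG00000089831), with 3.08, 2.33 and 4.30 CPM in mutants and 6.68, 5.19 and 8.15 CPM in WT (log2 fold change -1.04, adjusted p = 0.395, edgeR). A second row named si:dkey-16p6.1 (ENSDARG00000098515, 41860812-41879101) had 7.72, 2.25 and 4.98 CPM in mutants and 13.8, 9.49 and 4.15 CPM in WT, so the genotypes overlapped. The remaining lower rows, zgc:174696 and ENSDARG00000102542, also overlapped, with log2 fold changes of -0.56 and -0.24.

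The exception was the zinc finger gene znf1136 (40411457-40418191), which stands among them. It had 24, 25 and 23 counts in mutants and 14, 12 and 13 counts in WT, without overlap (log2 fold change 1.296, adjusted p = 0.389, edgeR). The window as a whole summed to 34.79, 15.996 and 26.95 CPM in mutants and 71.5, 56.8 and 48.7 CPM in WT, again without overlap.

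**Figure D3:**
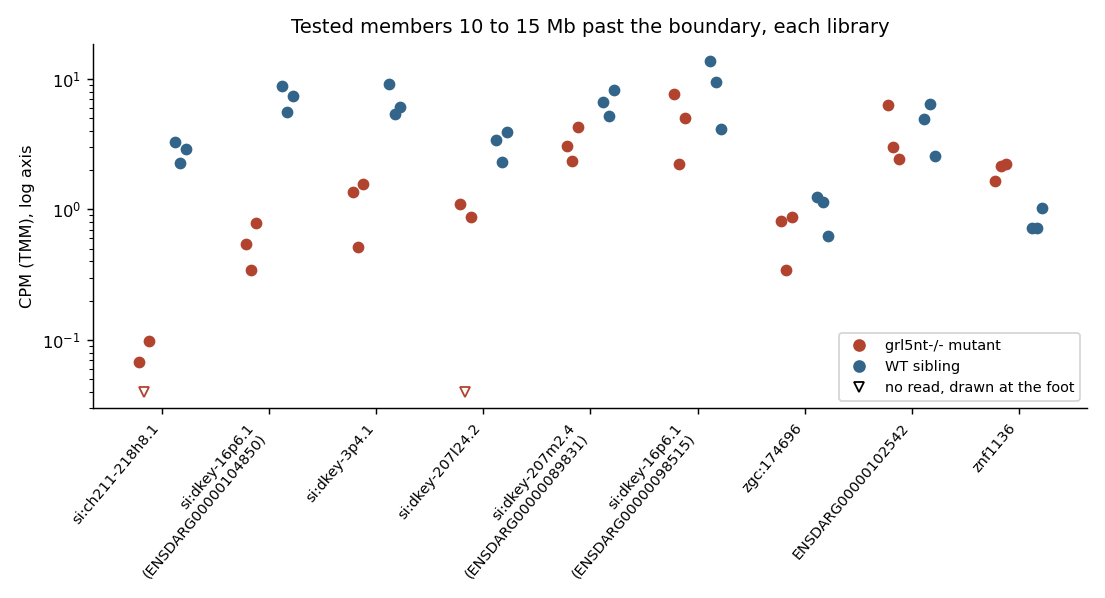
CPM on a log axis of the 9 tested members 10 to 15 Mb past the boundary in each library, mutants left of WT siblings for each gene, with a triangle at the foot for a library without reads. For si:ch211-218h8.1 and si:dkey-16p6.1 (ENSDARG00000104850), the mutants lie near or under 1 CPM and the WT siblings above 2 CPM. znf1136, at the right, lies the other way.

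Further members stood apart on other parts of the arm with an adjusted p above 0.05. They were picked after their values were seen. si:dkey-22a18.2 had 7, 0 and 2 counts in mutants and 106, 35 and 26 counts in WT. si:dkey-14o6.2 had 4, 0 and 4 counts in mutants and 44, 35 and 46 counts in WT. ENSDARG00000098383 had 7, 3 and 9 counts in mutants and 124, 62 and 35 counts in WT.

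All 3 were lower in each mutant library than in each WT library, with log2 fold changes of -3.71, -3.54 and -3.00 (adjusted p = 0.205, 0.176 and 0.151, edgeR). All 3 passed in DESeq2 (adjusted p = 0.00123, 0.000729 and 0.000263) and in edgeR with a term for the mt-co1 split (adjusted p = 0.0473, 0.0338 and 0.0383). None of the 3 passed in limma on either FPKM scale (adjusted p = 0.149 to 0.459). With any 1 library left out, none passed in edgeR either (adjusted p = 0.0718 to 0.672). si:dkey-14o6.2 (63348182-63365841) and ENSDARG00000098383 (63458198-63483150) stand close together. The opposite was seen for si:ch211-266c8.1 (73877474-73890649), which had 37, 47 and 100 counts in mutants and 6, 8 and 2 counts in WT (log2 fold change 4.03, adjusted p = 0.124, edgeR). Likewise si:dkey-240n22.6 had 14, 16 and 49 counts in mutants and 12, 8 and 3 counts in WT (log2 fold change 2.34, adjusted p = 0.373, edgeR). DESeq2 passed 9 long-arm members (3.63%), where 1.55% of all genes passed, and these also included si:ch211-266c8.1 (adjusted p = 1.22e-06) and si:dkey-3p4.1 (adjusted p = 5.28e-05). Both also passed in edgeR with the split term (adjusted p = 0.0346 and 0.0252). Without mutant replicate 1, si:ch211-266c8.1 passed in edgeR (adjusted p = 0.0387), but not with any other library left out (adjusted p = 0.0882 to 0.500). In limma it did not pass (adjusted p = 0.352 and 0.219).

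Among members with a mean of at least 1 FPKM whose genotypes did not overlap, 0 of the 11 described here passed in edgeR and 2 passed in DESeq2. Over all genes tested, 0.0769% passed in edgeR and 1.55% in DESeq2. The 11 were picked for the lack of overlap in these same counts, which favours a small p, so the shares cannot be compared. The smallest p of those lower in mutants belonged to CABZ01069012.1, with 6.49, 1.99 and 2.83 CPM in mutants and 24.4, 17.6 and 10.5 CPM in WT (log2 fold change -2.20, adjusted p = 0.204, edgeR). This gene also differed across the mt-co1 split, being 1.18 higher on the log2 scale in the libraries without mt-co1 reads. Nearer the end of the arm, zgc:123107 had 7.45, 5.45 and 8.79 CPM in mutants and 12.1, 12.2 and 12.4 CPM in WT (log2 fold change -0.76, adjusted p = 0.396, edgeR).

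Of those higher in mutants, zgc:172139 had 7.11, 9.86 and 7.03 CPM in mutants and 3.83, 3.40 and 2.27 CPM in WT (log2 fold change 1.33, adjusted p = 0.249, edgeR). Its span overlaps that of nup50, which encodes a nuclear pore protein and had 485, 623 and 609 counts in mutants and 339, 410 and 617 counts in WT. si:dkey-29j8.3 had 3.896, 2.08 and 2.64 CPM in mutants and 1.04, 1.43 and 0.940 CPM in WT (log2 fold change 1.33, adjusted p = 0.381, edgeR).

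The other members of this kind differed less or were lower in count. BX469910.2 had 25, 26 and 19 counts in mutants and 18, 23 and 2 counts in WT, and si:ch73-266f23.3 had 7, 4 and 2 counts in mutants and 18, 16 and 24 counts in WT. si:ch211-248k15.2 and si:dkey-29m1.1 stood higher in mutants, by 0.65 and 0.38 on the log2 scale. si:ch211-117l9.1 and CABZ01021450.3, whose spans each overlap 3 other rows, stood at -0.57 and -0.51. All 6 of these had adjusted p from 0.389 to 0.643 (edgeR).

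Genes with a known role come next. Of the 32 tested members with other gene names, 14 were higher and 18 lower in mutants, with a median log2 fold change of -0.05. None passed in edgeR or DESeq2, and 4 had an unadjusted p below 0.05 in edgeR. The smallest p of this kind belonged to PARP11, a mono-ADP-ribosyltransferase gene, with 3, 2 and 4 counts in mutants and 28, 21 and 12 counts in WT (log2 fold change -2.25, adjusted p = 0.249, edgeR). Next came gbp4, which encodes an interferon-inducible guanylate-binding protein, with 3, 2 and 4 counts in mutants and 15, 11 and 15 counts in WT (log2 fold change -1.75, adjusted p = 0.396, edgeR). For both genes each mutant library stood under each WT library. In the TRIM genes the genotypes overlapped. trim24, which encodes a chromatin-reading transcriptional cofactor, had 4.32, 4.87 and 4.94 FPKM in mutants and 4.69, 4.63 and 5.98 FPKM in WT. ftr51, of the fish-specific finTRIM family, had 1.85, 0.872 and 1.32 FPKM in mutants and 1.87, 2.16 and 1.63 FPKM in WT.

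The ms4a17a genes, which encode membrane-spanning 4-domain proteins, form a local array near 75 Mb and were picked after their values were seen. All 13 rows had reads and 5 were tested, of which 3 were higher and 2 lower in mutants. Their median log2 fold change of 0.27 turned to -0.04 in limma on log2(FPKM + 1) and -0.03 on log2(FPKM + 0.1). The median of all tested genes was lower on both scales, at -0.21 and -0.33. ms4a17a.11 had 13.0, 36.1 and 48.3 CPM in mutants and 12.2, 14.7 and 18.7 CPM in WT (log2 fold change 1.09, adjusted p = 0.444, edgeR). ms4a17a.9 had 7.25, 17.9 and 23.2 CPM in mutants and 8.08, 6.92 and 9.48 CPM in WT (log2 fold change 0.98, adjusted p = 0.457, edgeR). In both genes mutant replicate 1, which lacks mt-co1 reads, lay among the WT libraries. In log2 CPM with 2 counts added, the difference within the libraries without mt-co1 reads was -0.04 for each. Within those with them it was 1.16 and 1.09.

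Of the 25 tested zinc finger genes of the arm, 14 were higher and 11 lower in mutants. None passed in edgeR or DESeq2, and 2 had an unadjusted p below 0.05 in edgeR. Their median log2 fold change was 0.07, which turned to -0.04 and -0.21 in limma on log2(FPKM + 1) and log2(FPKM + 0.1). The median of all tested genes was -0.05 in the reported fit and -0.21 and -0.33 on those scales, each time the lower value. Other settings tested other sets of these genes. Without a filter the median of 157 was -0.14. With 1 library left out, the median of 27 to 42 genes lay between -0.40 and 0.19, so no direction can be given. The lowest of the 25 was -1.49 and the highest 1.296, which was znf1136. After it, znf1048 had the smallest p, with 13, 15 and 5 counts in mutants and 32, 33 and 28 counts in WT (log2 fold change -1.10, adjusted p = 0.462, edgeR). The 325 tested genes outside the arm that met the same symbol or description rule had a median of -0.25, with 90 higher and 235 lower.

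**Figure D4:**
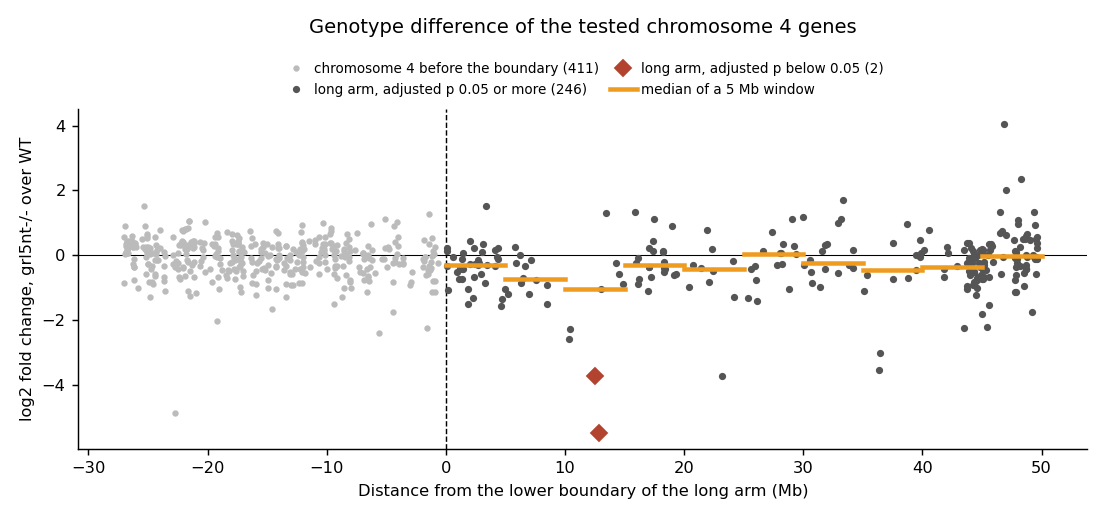
The log2 fold change, mutant over WT, of the 248 tested long-arm members and of the 411 tested genes before the boundary, by distance from the 27 Mb boundary. Diamonds mark the 2 members with an adjusted p below 0.05 and bars the median of each 5 Mb window. The bars lie between -1.04 and 0.05, lowest at 10 to 15 Mb past the boundary and near 0 at the distal end.

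As a group, the tested members leaned to lower values in mutants. Of the 248, 91 were higher and 157 lower, with a median log2 fold change of -0.26. The median was -0.00 on chromosome 4 below 27 Mb and -0.04 elsewhere, where single chromosomes ran between -0.11 and 0.04. In limma on log2(FPKM + 1) the median of all tested genes was -0.21. The long-arm median of -0.17 stood 0.04 above it, so the order of the long arm and all genes turned on that scale. On log2(FPKM + 0.1) the order did not turn, with a long-arm median of -0.44 against -0.33 over all genes tested. Of the kinds, the clone, accession or ID named members had 62 higher and 127 lower and a median of -0.31. For this kind the split term gave 86 higher and 103 lower and a median of -0.13, and the median was -0.15 without WT replicate 1, -0.20 without mutant replicate 2, -0.62 without mutant replicate 1 and -0.51 without WT replicate 3. The 70 tested members of the distal window, 72 to 77 Mb, had 35 higher and 35 lower and a median of -0.02. Without the 9 members from 37 to 42 Mb, an alternative added after the data were seen, the long-arm median was -0.24. With all windows kept, leaving out mutant replicates 1 and 2 in turn gave -0.49 and -0.13, and leaving out WT replicates 1, 2 and 3 in turn gave -0.11, -0.14 and -0.44.

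Genes of low level elsewhere leaned the same way. Below a mean of 1 FPKM, the 179 long-arm members had a median of -0.31 with 60 higher (33.5%), against a median of -0.35 with 917 of 3199 higher (28.7%) among the tested genes outside the arm. At 1 FPKM and above, the 69 long-arm members had a median of -0.09 with 31 higher, against 0.02 in the 12155 others. In the low-level class the long-arm median was thus the less negative of the pair.

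Within each side of the mt-co1 split, differences were taken as mean log2 CPM with 2 counts added. Their median was -0.10 in the libraries without mt-co1 reads and -0.06 in those with them. The added counts shrink the differences of low-count genes, so these medians cannot be set against the edgeR median. With a term for the split in the fit, the median was -0.06 and 118 of 248 were higher. In that fit, which holds both terms, the split went with a larger median difference than the genotype did. Libraries without mt-co1 reads were higher than those with them for 183 of the 248 members, with a median log2 difference of 0.47, against 0.01 below 27 Mb and 0.04 elsewhere. In that comparison 51 members (20.6%) passed higher and 14 (5.65%) lower, where 20.1% and 18.1% of all genes tested passed. In the low-level class the median was 0.58 on the arm and 0.55 outside it.

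Among members with a mean of at least 1 FPKM, the genes that differed most across the split, by a rule that used this difference, were cerk, gramd4a and ENSDARG00000101645. cerk, which encodes ceramide kinase, had 9.57, 2.08 and 2.15 CPM in mutants and 8.90, 7.34 and 3.76 CPM in WT. gramd4a, which encodes a GRAM domain protein, had 8.34, 2.51 and 3.81 CPM in mutants and 13.3, 7.28 and 3.53 CPM in WT. ENSDARG00000101645 had 407, 136 and 0 counts in mutants and 338, 373 and 84 counts in WT, so that mutant replicate 3 had none where mutant replicate 1 had the most. In each gene the libraries without mt-co1 reads were the highest, and the genotypes overlapped. The split difference passed for cerk and gramd4a (adjusted p = 0.00347 and 0.00641, edgeR). It did not pass for ENSDARG00000101645 (adjusted p = 0.0645, edgeR).

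**Figure D5:**
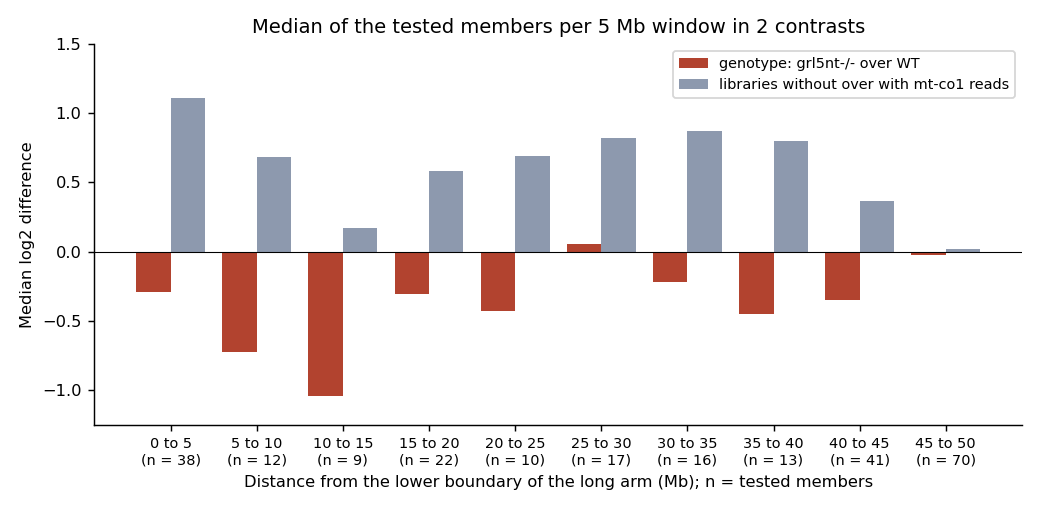
Median log2 difference of the tested members in each 5 Mb window for mutant over WT and for libraries without over libraries with mt-co1 reads. The first is from the fit on genotype alone and the second from a fit that also holds genotype. The second set of bars is positive in all 10 windows and highest next to the boundary (1.11), while the genotype bars are lowest at 10 to 15 Mb (-1.04), where the split bar is 0.17.

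Along the arm, the 2 contrasts did not follow each other. Next to the boundary, from 27 to 32 Mb, 35 of 38 members were higher in the libraries without mt-co1 reads (median 1.11), while the genotype median was -0.29. From 37 to 42 Mb the split median was 0.17 and the genotype median -1.04. From 72 to 77 Mb both were near 0, at 0.02 and -0.02.

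Cell type marker lists were summed in the same libraries, and no gene of any list passed in edgeR (smallest adjusted p = 0.314). In DESeq2 1 passed, zap70 of the lymphocyte list, a T cell kinase gene (adjusted p = 0.0429). Between the genotypes only the macrophage list did not overlap. It has 5 genes and summed to 649 to 757 CPM in mutants and 907 to 1211 CPM in WT, and 3 of its 5 genes had an unadjusted p below 0.05 in edgeR. The lymphocyte list of 6 genes, 4 tested, summed to 2.68 to 4.51 CPM in mutants and 3.92 to 20.3 CPM in WT. Of its 4 tested genes, 1 was higher in mutants and the median log2 fold change was -1.88. An unadjusted p below 0.05 in edgeR was reached by 3 of these 4, where 10.6% of all genes tested reached it. The erythrocyte list, with 3 of 6 genes in the table, summed to 18224 to 35722 CPM in mutants and 7175 to 33195 CPM in WT.

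Across the mt-co1 split more lists stood apart. Without overlap, the libraries without mt-co1 reads were lower for the erythrocyte list (7175 to 18224 CPM, against 27089 to 35722 CPM with mt-co1 reads) and the cardiomyocyte list (27641 to 29083 CPM, against 40523 to 46548 CPM). They were higher for the lymphocyte list (4.51 to 20.3 CPM, against 2.68 to 3.92 CPM) and the endothelium list (574 to 577 CPM, against 360 to 424 CPM). The neutrophil list (11.5 to 17.8 CPM, against 21.8 to 29.9 CPM) and the fibroblast list (1959 to 2645 CPM, against 2942 to 3197 CPM) were also lower without overlap, while the macrophage and epicardium lists overlapped. The part of these cell types in the long-arm differences, by genotype or by the split, was not tested. The germ cell list stayed at or below 0.778 CPM in every library and none of its genes could be tested. Between the genotypes, 2 genes of the neutrophil, endothelium, epicardium and fibroblast lists together had an unadjusted p below 0.05. No listed gene found in the table was without reads in all 6 libraries.

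Genes of heterochromatin were looked at because of the state of the arm. Of 30 listed genes 28 were in the table and 26 were tested, 7 higher and 19 lower in mutants, with a median of -0.15. With a term for the mt-co1 split 13 were higher and 13 lower, with a median of -0.0076. The median was -0.03 without WT replicate 1, -0.29 without mutant replicate 1 and -0.36 without WT replicate 3, so no direction is given for the list. None passed in the reported edgeR fit and 2 had an unadjusted p below 0.05, where 10.6% of all genes tested did. In DESeq2 1 passed, where 1.55% of all genes passed. In edgeR 1 passed without a filter, with the replicate block and with the split term, where 39, 132 and 241 of all genes passed. The nearest in the reported fit was smchd1, which encodes a chromosome-associated repressor needed for X inactivation in mammals. It had 14.4, 14.4 and 14.2 CPM in mutants and 36.7, 44.2 and 51.9 CPM in WT (log2 fold change -1.63, adjusted p = 0.0515, edgeR). setdb1a, a histone H3 lysine methyltransferase gene, had 17.5, 11.2 and 8.10 CPM in mutants and 24.4, 31.0 and 20.0 CPM in WT (log2 fold change -1.03, adjusted p = 0.385, edgeR). In both, each mutant library stood under each WT library. The part of these 2 genes in the long-arm differences was not tested.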

How the data were processed

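Total RNA from ventricles of the 6 grl5nt-/- and WT libraries was sequenced after library preparation with the TruSeq RNA kit. Per the submitters' processing notes, reads were aligned to GRCz10 with HISAT2 2.0.4 and assembled with StringTie 1.3.0. The authors deposited a table of whole-number read counts per gene and a table column of FPKM values for each library. The counting program, its strand setting and its treatment of reads that match several places are not given in the sources used here. The other 6 of the series' 12 samples are not analysed here.

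Long-arm members were read from the locus column. Counts of all 32105 rows were fitted with edgeR 4.0.16 (R 4.3.3), TMM factors, filterByExpr and the two-sided quasi-likelihood test on genotype, and p-values were adjusted by Benjamini-Hochberg over all 15602 genes tested. A gene was called at an adjusted p below 0.05. Fold changes are mutant over WT as given by the edgeR fit. The SE was worked back from the test, as the size of the log2 fold change over the square root of its F statistic. A prior count of 2 entered only the log2 CPM values, from which the differences within each side of the mt-co1 split were taken. Exact permutation tests over 3 against 3 libraries cannot go below p = 0.1 and were not used for calls. Sums, shares and medians over members carry no test. The difference between libraries without and with mt-co1 reads was fitted with the same test, with genotype also in the model. Small RNA, zinc finger and other kinds of gene were taken from the symbols and descriptions given in the deposited gene table. No protein or genome sequence was used.

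The genes named are those called, the members with the smallest p among those of at least 1 FPKM whose genotypes do not overlap, the 6 of highest level, the 2 of smallest p in each kind, the genes next to the boundary and the 3 with the largest mt-co1 split difference among members of at least 1 FPKM. A further rule, for genes with at least 10 counts in each library of one genotype and 0 in each of the other, found none. 15 further genes were named after their values were seen. The members, lists and tests were chosen with earlier results of these data known. Alternatives were DESeq2 1.42.0, its size factors, other filters, limma 3.58.1 on log2(FPKM + 1) and log2(FPKM + 0.1), a replicate block, a term for the mt-co1 split, a boundary at 30 Mb, an adjusted p below 0.1 and the omission of each library. The fits were also run on simulated counts with the same dispersion for all genes and no mt-co1 split. That run therefore says nothing about the effect of the split on the results given here. Libraries held 12520034 to 15006574 counts, and 3 counts, the limit that a count of 0 allows, equal 0.155 to 0.293 CPM.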

Additional observations from a re-analysis of the deposited data

How the results depend on the processing

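Called long-arm members numbered 2 in the reported fit, with an adjusted p below 0.1 and with the boundary at 30 Mb. DESeq2 called 9, the replicate block 8, the term for the mt-co1 split 8 and the fit without a filter 5, while a minimum of 1 FPKM and limma on log2(FPKM + 1) and log2(FPKM + 0.1) called 0. The FPKM minimum did not test the 2 genes called in the reported fit, which averaged 0.70 FPKM (ENSDARG00000104850) and 0.27 FPKM (si:ch211-218h8.1). At an unadjusted p below 0.05 stood 10 of the 71 members tested with the FPKM minimum. In limma 27 and 26 of 248 did, against 29 of 248 in the reported fit. With each library left out in turn the count lay between 0 and 3, at 0 without mutant replicates 2 or 3 or WT replicates 1 or 2. The calls over all genes fell there too, to 3, 3, 5 and 5 in that order. They were 30 without mutant replicate 1 and 30 without WT replicate 3. Over all genes, 12 were called in the reported fit, 242 by DESeq2, 132 with the block, 241 with the split term, 39 without a filter, 4 with the FPKM minimum and 5 in limma on log2(FPKM + 1). Both called genes kept their direction in every fit that tested them and were lost in limma (adjusted p = 0.0961 to 0.228).

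Members higher in mutants numbered 91 of 248 as reported, 372 of 996 without a filter, 31 of 71 at 1 FPKM or more, 46 of 248 in limma on log2(FPKM + 1) and 49 on log2(FPKM + 0.1). On those scales the median of all genes tested was -0.10 without a filter, -0.21 and -0.33 in limma. The long-arm median stayed below 0 throughout, between -0.49 (without mutant replicate 1) and -0.06 (split term), and was -0.24 with the replicate block. The ratio of summed levels was 0.859 from FPKM against 1.0005 from CPM. The share ratio lay between 0.694 (without WT replicate 3) and 0.916 (without WT replicate 1). The labels number the replicates, but same-numbered libraries deviated together in only some pairs (r = 0.587, -0.336 and 0.383), so the numbers were not taken as pairs.

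Of 601 values of single genes under other settings, 539 kept direction and side of the threshold, 24 passed newly, 13 were lost and 25 changed sign. In limma the median of all tested genes was -0.21 on log2(FPKM + 1) and -0.33 on log2(FPKM + 0.1). On these 2 scales the changed signs were ptprb (-0.0098 and -0.0095), si:ch211-209p16.4 (-0.036 and -0.036), ENSDARG00000087206 (-0.023 and -0.023), creld2 (-0.041 and -0.023), trim24 (-0.091 and -0.11) and ms4a17a.10 (-0.035 and -0.032). With the split term they were ENSDARG00000087206 (-0.031), trim24 (-0.074), ENSDARG00000101645 (0.23), ENSDARG00000102542 (0.12) and ms4a17a.14 (0.31), and with the replicate block ms4a17a.14 (0.16). With one library left out the changed signs, beside the far end of each gene's range, were trim24 (-0.0093 without WT replicate 1, 0.54 without WT replicate 3), ENSDARG00000101645 (0.36 without mutant replicate 3, 0.16 without WT replicate 2, -1.34 without mutant replicate 1), ENSDARG00000102542 (0.011 without mutant replicate 3, 0.084 without WT replicate 2, -0.74 without mutant replicate 1) and ms4a17a.14 (0.11 without mutant replicate 3, 1.002 without WT replicate 1, -0.47 without WT replicate 3). The causes were not tested.

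Of the 996 members with a read, 748 were too low to test, so the absence of a call says little about them.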
